A study of Homo sapiens with 8 samples.

Results

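The cytosolic ribosomal protein genes encode the proteins of the large and the small subunit of the ribosome that translates mRNA in the cytoplasm. They were taken from an RNA-seq table of ESO26, an established oesophageal adenocarcinoma line. They were chosen by their symbols (RPL or RPS followed by a number, with RPLP0, RPLP1, RPLP2 and RPSA) and selected on 1 measured value, a 4-library mean of 10 or more normalized counts. That mean does not use the contrast between groups. The rule gave 82 genes of the 30755 in the table, and of 86 symbols that matched before the minimum was applied. They comprise 45 large-subunit genes, 32 small-subunit genes and 5 paralogs, copies named for the canonical gene they resemble (RPL7L1, RPL22L1, RPL26L1, RPL39L and RPS27L). By the rule, 1 further large-subunit gene and the Y-linked copies of RPS4X were left out. RPS28 was the member nearest above the minimum, with a mean of 42.2, and RPS10L the nearest below it, with a mean of 5.32. No member passed the minimum through 1 group only, since the lowest single value, that of RPS28 in control 2, was 32.4.

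Ribosomal proteins are made in matched amounts and are assembled with ribosomal RNA in the nucleolus. Their mRNAs are among the most abundant of a growing cell, and most begin with a terminal oligopyrimidine (TOP) tract, an unbroken run of C and T at the 5′ end through which LARP1 and the mTOR pathway control their translation. MYC is known to drive the transcription of these genes and of the machinery that makes ribosomal RNA. RPL5 and RPL11, when free of the ribosome, bind MDM2 and thereby raise p53.

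Start sequences of the 6 canonical members with the largest falls, of 2 proteins that often stand for the class (RPLP0 and RPS6) and of 3 members whose values differed from the class are shown because the TOP tract is the sequence these genes are known to share. Each is the 30 bases from 10 before to 20 after a RefSeq transcription start in GRCh38.p14, 5′ to 3′ on the gene's strand. Capitals mark the longest unbroken run of C and T, and where a gene has several starts the window with the longest run is shown.
RPS12 (chr6:132814559-132814588, plus strand): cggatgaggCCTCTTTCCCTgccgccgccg
RPS29 (chr14:49598691-49598720, minus strand): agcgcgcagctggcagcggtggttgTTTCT
RPL36 (chr19:5690285-5690314, plus strand): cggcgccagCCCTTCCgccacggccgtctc
RPL10 (chrX:154398367-154398396, plus strand): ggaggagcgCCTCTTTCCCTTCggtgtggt
RPL29 (chr3:51995876-51995905, minus strand): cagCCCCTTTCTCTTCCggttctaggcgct
RPS3 (chr11:75399508-75399537, plus strand): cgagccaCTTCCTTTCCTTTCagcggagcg
RPLP0 (chr12:120201092-120201121, minus strand): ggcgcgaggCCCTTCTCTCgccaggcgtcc
RPS6 (chr9:19380217-19380246, minus strand): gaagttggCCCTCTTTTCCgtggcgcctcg
RPL11 (chr1:23691796-23691825, plus strand): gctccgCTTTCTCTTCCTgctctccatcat
RPL26L1 (chr5:172958870-172958899, plus strand): ggcggcggccacaaaCCCgcaggcacgccg
RPS27L (chr15:63157458-63157487, minus strand): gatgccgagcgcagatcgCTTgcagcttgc
The run is 5 bases long in RPS29, 7 in RPL36 and at least 8 in the other canonical genes shown, and no longer than 3 in the paralogs RPL26L1 and RPS27L. The other starts of RPL10 hold runs of 5 and 4 bases, and the other start of RPL11 a run of 5.

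Control ESO26 cells (2 libraries, control 1 and control 2) were compared with ESO26 cells whose HNF4A had been knocked down by a small interfering RNA (2 libraries, siHNF4A 1 and siHNF4A 2). The labels do not say whether both siHNF4A libraries received the same siRNA, and the series' text speaks of triplicates where the table used here holds 2 libraries per group. If the siRNAs differed, the spread within the siHNF4A group would include that difference. HNF4A is a transcription factor of the liver and gut epithelium. The labels give neither the siRNA sequence, the time after transfection nor the treatment of the controls, and nothing in them says that the libraries of a group came from separate cultures, so p-values measure only the spread between these samples. The series also holds 2 ChIP-seq libraries, for HNF4A and for Flag-tagged GATA4, and 2 chromosome conformation capture libraries, which were not used here.

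The knockdown was seen in both libraries: HNF4A had 4129 and 3937 normalized counts in control 1 and 2, and 1140 and 932 in siHNF4A 1 and 2 (log2 fold change -1.97, SE 0.10, limma adjusted p = 1.59e-05). Normalized counts summed to between 17912507 and 18613685 per library, and the sequencing depth behind them is unknown. Between 5479 and 5640 genes were listed at 0 in the control libraries and between 4260 and 4362 in the siHNF4A libraries. Of 8 markers of columnar epithelium, all had a mean of at least 10, with summed levels of 99021 and 102135 in control and 95828 and 94042 in siHNF4A, although TFF3 averaged 27.1. Within that sum EPCAM (30669 and 30712 against 25123 and 25094), KRT8 and KRT18 were lower in both siHNF4A libraries, and KRT19, CDH1 and CDH17 were higher in both. Summed markers of other cell types stayed low in every library, at no more than 36.2 for squamous epithelium, 223 for fibroblasts, 78.7 for leukocytes and 64.0 for endothelium. The fibroblast sum was 195 and 122 in control against 223 and 223 in siHNF4A, and the endothelial sum 24.6 and 15.2 against 64.0 and 47.2. Each of these differences came from 1 gene, COL1A1 and VWF, and the groups overlapped for the other listed genes in the table (COL1A2, DCN and CDH5). The part of these differences in the results below was not tested.

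Most ribosomal protein mRNAs were slightly lower after HNF4A knockdown. By limma, 55 of the 82 genes fell and 1, RPL26L1, rose, at an adjusted p under 0.05 with p-values adjusted over all 15577 genes tested, while the other 26 did not pass. Over all genes tested, 14.1% were called in either direction, 8.11% lower and 6.02% higher. The mean log2 value was lower in siHNF4A for 78 of the 82 genes, against 51% of all genes tested, and both siHNF4A libraries lay below both control libraries for 75 of them, against 30.1% of all genes. Both lay above for 2 genes, RPL11 and RPL26L1, against 26.9% of all genes. The count of called members rested on all 4 libraries: it was 65 without control 1, 35 without control 2, 33 without siHNF4A 1 and 11 without siHNF4A 2. It was also 11 with no filter on low genes and 0 without limma's variance trend, where 40 members had an unadjusted p under 0.05.

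The falls were small and alike in size. The median log2 fold change of the 82 genes was -0.26, with a quartile range of -0.32 to -0.21 and extremes of -0.64 (RPS27L) and 0.50 (RPL26L1). The median over all genes tested was -0.01, and it was -0.05 in the 4537 genes that averaged 1000 or more, of which 16.4% were called lower. Between -0.5 and -0.1 lay 76 of the 82 genes and 30.7% of all genes tested. The quartile range was -0.19 to 0.21 over all genes tested and -0.18 to 0.09 in the genes that averaged 1000 or more. When each library was rescaled to the same total, 43 members were called lower and 1 higher with a median of -0.22, and the calls over all genes changed from 1264 lower of 2202 to 1009 lower of 2145. Under each of the 3 rescalings tried, 78 of the 82 genes kept a lower mean in siHNF4A.

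**Figure D1:**
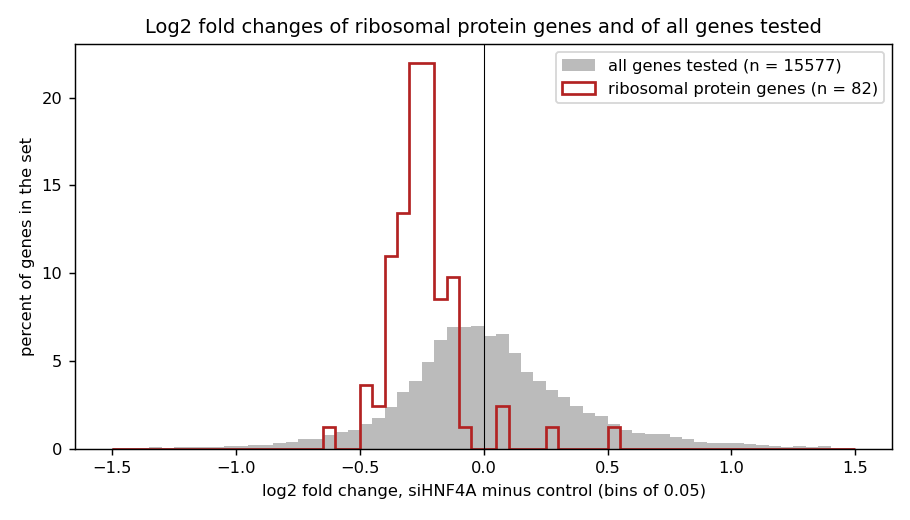
Distribution of log2 fold changes (siHNF4A minus control, x axis, bins of 0.05) as percent of the genes in each set (y axis), for the 82 ribosomal protein genes (red line) and all 15577 genes tested (grey). The ribosomal protein genes form a narrow peak around their median of -0.26, while all genes spread around -0.01; 156 genes beyond 1.5 in either direction, none of them a ribosomal protein gene, are not drawn.

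Summed over the 82 genes, control 1 and 2 had 586920 and 630922 normalized counts, and siHNF4A 1 and 2 had 522753 and 499079. The siHNF4A mean was 83.9% of the control mean, and the groups did not overlap (exact two-sided permutation p = 0.333, the smallest that 2 libraries against 2 can give). As a share of all normalized counts of a library, the class took 3.23% and 3.39% in control and 2.92% and 2.79% in siHNF4A. The large-subunit sum was 84.5% and the small-subunit sum 82.9% of control, so the subunits were lower by similar amounts. Fewer ribosomal protein mRNAs in each cell and a change in the other RNAs that share the library cannot be told apart in these relative values, nor can fewer cells of a kind and less RNA per cell.

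Libraries of the same group also differed in a common direction. Control 2 was above control 1 for 77 of the 82 genes, against 54.4% of all genes tested, and siHNF4A 2 was below siHNF4A 1 for 70, against 51.9%. The median log2 difference over the members was 0.11 between the control libraries and -0.06 between the siHNF4A libraries. It was -0.18, -0.23, -0.28 and -0.35 for the 4 pairs of a siHNF4A with a control library, so the smallest difference between groups was 0.18 and the largest within a group 0.11 in size.

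**Figure D2:**
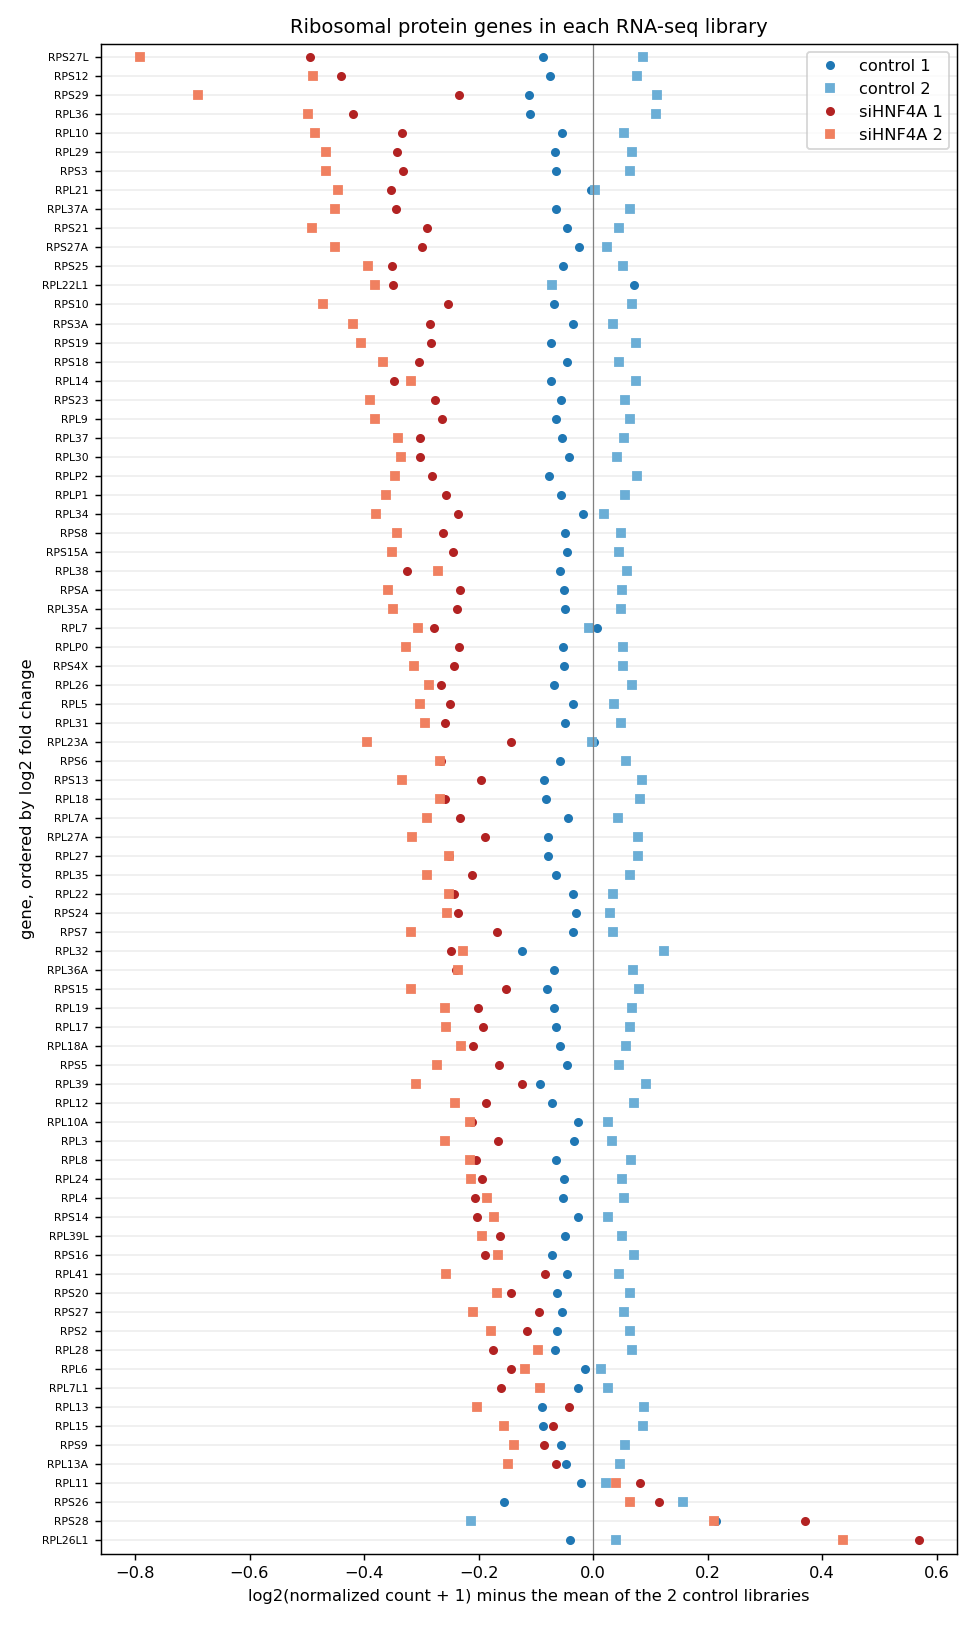
Each row is 1 of 79 of the 82 genes, ordered by log2 fold change, and each point 1 library, as log2(normalized count + 1) minus the mean of the 2 control libraries (x axis). The siHNF4A points (red) lie left of the control points (blue) in 73 rows, siHNF4A 2 usually farthest left, and RPL11, RPS26, RPS28 and RPL26L1 at the foot have a higher mean in siHNF4A.

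Among large-subunit genes, 33 of 45 fell and none rose, against 8.11% and 6.02% of all genes tested, and the median log2 fold change was -0.25. RPL36 had 2246 and 2616 normalized counts in control 1 and 2 and 1812 and 1717 in siHNF4A 1 and 2 (log2 fold change -0.46, SE 0.09, adjusted p = 0.00720). RPL10, which joins the subunit in a late step and is needed for it to enter translation, had 7122 and 7676 in control and 5868 and 5282 in siHNF4A (-0.41, SE 0.07, adjusted p = 0.00437). RPL29 went from 3968 and 4356 to 3278 and 3008 (-0.40, SE 0.07, adjusted p = 0.00605). In each of these genes the lower control library stood above the higher siHNF4A library. RPL37A, a zinc-finger protein, had 10170 and 11118 in control and 8373 and 7775 in siHNF4A (-0.40, SE 0.06, adjusted p = 0.00348). The call of RPL29 was lost without siHNF4A 2 (limma adjusted p = 0.0517), and those of RPL36, RPL10 and RPL37A held with any 1 library left out.

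RPLP0, RPLP1 and RPLP2 form the stalk of the large subunit that recruits elongation factors, and all 3 fell by about the same amount. RPLP0 had 25492 and 27401 normalized counts in control and 22467 and 21071 in siHNF4A (log2 fold change -0.28). RPLP1 had 10546 and 11389 in control and 9176 and 8527 in siHNF4A (-0.31), and RPLP2 had 3128 and 3482 in control and 2715 and 2596 in siHNF4A (-0.31). Limma adjusted p-values were 0.00896, 0.00935 and 0.0190, and without siHNF4A 2 they became 0.0994, 0.0885 and 0.113. RPLP2 also missed the threshold without control 2 (limma adjusted p = 0.0757) and without siHNF4A 1 (0.0571). RPL3 and RPL8, near the catalytic centre, and RPL4, which lines the exit tunnel, had smaller fold changes in value, a difference from the stalk genes that was not tested. RPL3 had 12376 and 12966 in control and 11290 and 10594 in siHNF4A (-0.21), RPL4 had 17832 and 19201 against 16040 and 16265 (-0.20), and RPL8 had 26948 and 29508 against 24481 and 24301 (-0.21). These 3 genes passed the threshold with all 4 libraries (limma adjusted p = 0.0319, 0.0353 and 0.0290) and missed it without control 2 or without either siHNF4A library. With libraries rescaled to the same total RPL3 and RPL4 missed it as well (limma adjusted p = 0.0519 and 0.0530), and RPL8 did with quantile normalization (0.212, log2 fold change -0.12). RPL39, of the exit tunnel, was 4842 and 5504 in control and 4735 and 4168 in siHNF4A and did not pass (-0.22, limma adjusted p = 0.112). Its log2 fold change was -0.31 without control 1 and -0.12 without control 2.

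RPL5 and RPL11, which form a particle with the 5S ribosomal RNA, parted. RPL5 fell, from 10716 and 11264 normalized counts in control to 9238 and 8910 in siHNF4A (log2 fold change -0.28, SE 0.05, limma adjusted p = 0.00902, and 0.0834 without siHNF4A 2). RPL11 had 7976 and 8218 in control and 8570 and 8320 in siHNF4A (0.06, 95% interval -0.06 to 0.18, limma adjusted p = 0.502). The RPL11 interval lies above the class median of -0.26. RPL11 as a percent of RPL5 was 74.4% and 73.0% in the control libraries and 92.8% and 93.4% in the siHNF4A libraries (exact two-sided permutation p = 0.333, the smallest possible). RPL11 was picked out for its position at the edge of the class, so this ratio is a description. It is not per length, and only its difference between libraries is read.

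Among small-subunit genes, 21 of 32 fell and none rose, against 8.11% and 6.02% of all genes tested, and the median log2 fold change was -0.27. RPS12 had 5972 and 6637 normalized counts in control and 4638 and 4484 in siHNF4A, the largest fall of a canonical gene (-0.47, SE 0.07, limma adjusted p = 0.00195). RPS3, which lines the channel where mRNA enters, had 15190 and 16605 in control and 12616 and 11497 in siHNF4A (-0.40, SE 0.06, limma adjusted p = 0.00356). Both kept their call with any 1 library left out. RPS21 had 2349 and 2501 in control and 1983 and 1724 in siHNF4A (-0.39, limma adjusted p = 0.0135, and 0.0999 without siHNF4A 2). RPS29 had 2342 and 2734 in control and 2150 and 1568 in siHNF4A (-0.46, SE 0.13), and without siHNF4A 2 the log2 fold change was -0.23, without siHNF4A 1 -0.69. The RPS29 call (limma adjusted p = 0.0449) was lost under each of the 3 rescalings, with limma's robust option, without control 2 and without siHNF4A 2 (adjusted p = 0.240).

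RPSA, also known as a laminin receptor, had 7511 and 8056 normalized counts in control and 6624 and 6070 in siHNF4A (log2 fold change -0.29). RPS4X, the X-linked gene of a pair with Y-linked copies, had 6988 and 7505 in control and 6120 and 5832 in siHNF4A (-0.28). RPS6, which S6 kinase phosphorylates downstream of mTOR, had 7211 and 7808 in control and 6240 and 6237 in siHNF4A (-0.27). These 3 genes lay near the class median, with limma adjusted p-values of 0.0147, 0.0146 and 0.0158, which rose to 0.124, 0.111 and 0.0877 without siHNF4A 2. The RPS6 call was also lost without control 2 (limma adjusted p = 0.0609) and without siHNF4A 1 (0.0836). RPS24 had 26707 and 27820 in control and 23140 and 22851 in siHNF4A (-0.25, limma adjusted p = 0.00787), a call that was lost without either siHNF4A library (0.0611 and 0.0828) and with quantile normalization (0.0544, log2 fold change -0.14). RPS2 had 23292 and 25445 in control and 22470 and 21520 in siHNF4A and did not pass (-0.15, limma adjusted p = 0.111). Its log2 fold change was -0.21 without control 1, -0.08 without control 2 and -0.04 with quantile normalization.

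Small-subunit genes with a higher mean in siHNF4A were the 2 with the fewest normalized counts. RPS26 had 180 and 224 normalized counts in control and 218 and 210 in siHNF4A (log2 fold change 0.09, adjusted p = 0.760 by limma), and its difference turned to -0.07 without control 1. RPS28 had 43.9 and 32.4 in control and 49.0 and 43.8 in siHNF4A (0.29, SE 0.29, adjusted p = 0.567 by limma). Its difference was 0.50 without control 1 and 0.08 without control 2. In both genes the groups overlapped.

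Diamond-Blackfan anaemia is an inherited failure of red cell production. Of the 19 members listed as mutated in it, 13 fell and none rose (8.11% and 6.02% of all genes tested). Their median log2 fold change was -0.25. The 13 are 68.4% of the list, near the 67.1% of all members called lower, so the list is not set apart from the class. RPS19, the gene most often affected, had 3854 and 4273 normalized counts in control and 3333 and 3065 in siHNF4A (-0.34, SE 0.07, limma adjusted p = 0.0135, and 0.100 without siHNF4A 2). RPL11, RPS26 and RPS28, the 3 canonical members with a higher mean in siHNF4A, are also on this list.

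Across the 82 genes, 10 kept their call under each of the 3 rescalings and with any 1 library left out, with the filter and the variance trend kept, and these 10 were lower in siHNF4A. They are 10 of the 56 called members, while 691 of the 2202 called genes of the whole table (31.4%) kept their call under the same settings. As a share of the genes tested, these are 12.2% of the members and 4.44% of all genes. Beside RPS12, RPS3, RPL36, RPL10, RPL37A and RPS27L these were RPS27A, RPS25, RPS18 and RPL30, which are named here after their values were seen. RPS27A, whose product is made as a fusion with ubiquitin, had 9650 and 9975 normalized counts in control and 7977 and 7179 in siHNF4A (log2 fold change -0.37). RPS25, known for its part in translation from viral internal entry sites, had 5256 and 5653 in control and 4271 and 4152 in siHNF4A (-0.37). RPS18 had 12768 and 13586 against 10672 and 10216 (-0.33), and RPL30 had 8922 and 9458 against 7448 and 7277 (-0.32).

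The 5 paralogs did not follow one pattern: RPS27L fell, RPL26L1 rose and 3 did not pass. RPL26L1, a near copy of the exit-tunnel protein RPL26, had 426 and 450 normalized counts in control and 649 and 592 in siHNF4A (log2 fold change 0.50, SE 0.11, limma adjusted p = 0.0133, and 0.0968 without siHNF4A 1). RPL26 itself fell, from 3436 and 3776 to 2996 and 2953 (-0.28, limma adjusted p = 0.0254, and 0.110, 0.0953 and 0.121 without control 2, siHNF4A 1 and siHNF4A 2). As a percent of RPL26, RPL26L1 was 12.4% and 11.9% in control and 21.7% and 20.1% in siHNF4A, a log2 difference of 0.78. RPL26L1 was the 1 member called higher, and it moved against its canonical gene.

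RPS27L, a copy of RPS27 known as a p53 target, had 824 and 930 normalized counts in control and 622 and 505 in siHNF4A (log2 fold change -0.64, SE 0.12, limma adjusted p = 0.00730). RPS27 had 4066 and 4382 in control and 3954 and 3648 in siHNF4A and did not pass (-0.15, limma adjusted p = 0.174). RPS27L as a percent of RPS27 was 20.3% and 21.2% in control and 15.7% and 13.9% in siHNF4A, a log2 difference of -0.49. The ratios to the canonical gene did not overlap between the groups for RPL26L1, RPS27L, RPL22L1 and RPL7L1 (exact two-sided permutation p = 0.333 each, the smallest possible), and overlapped for RPL39L. For single genes, groups that do not overlap made up 57% of all tested, and for RPL22L1 the nearest libraries were 3.127% and 3.124%.

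The other pairs differed less. RPL22, which binds small viral RNAs, had 10926 and 11462 normalized counts in control and 9458 and 9395 in siHNF4A (log2 fold change -0.25, limma adjusted p = 0.0128, and 0.0761 and 0.0901 without siHNF4A 1 and siHNF4A 2). RPL22L1 had 396 and 358 in control and 296 and 289 in siHNF4A and did not pass (-0.37, limma adjusted p = 0.0807), and as a percent of RPL22 it was 3.63% and 3.13% in control and 3.12% and 3.08% in siHNF4A. RPL7 had 12888 and 12757 in control and 10572 and 10377 in siHNF4A (-0.29, limma adjusted p = 0.00479, and 0.0511 without siHNF4A 2). RPL7L1 had 4032 and 4184 against 3672 and 3852 (-0.13, limma adjusted p = 0.209), and as a percent of RPL7 it was 31.3% and 32.8% in control and 34.7% and 37.1% in siHNF4A. RPL39L had 177 and 190 in control and 164 and 160 in siHNF4A (-0.18) and did not pass, and as a percent of RPL39 it was 3.66% and 3.45% against 3.46% and 3.85%.

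**Figure D3:**
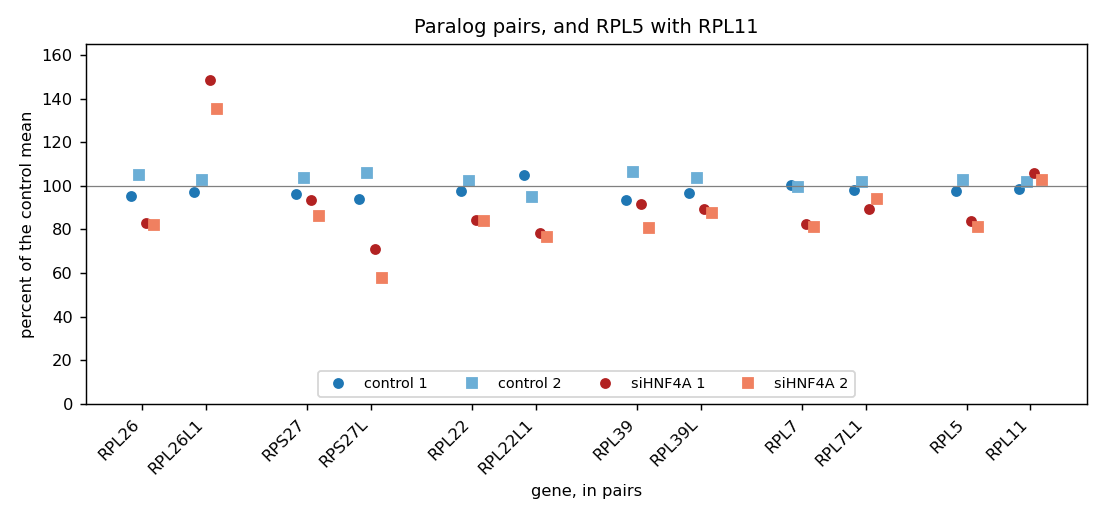
Each library's value as a percent of the mean of the 2 control libraries (y axis) for 5 canonical genes beside their paralogs and for RPL5 beside RPL11; each point is 1 library. RPL26L1 stands at 649 and 592 normalized counts in siHNF4A, above its controls at 426 and 450, while RPL26 stands below its controls.

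Some values rest on sequence that several rows of the table share. RPL21 had 1852 and 1863 in control and 1454 and 1364 in siHNF4A (log2 fold change -0.40, limma adjusted p = 0.00728, and 0.0577 without siHNF4A 2), but rows of RPL21 pseudogenes held 75.8% of the counts of both, and with them added the difference was -0.31. The pseudogene RPL21P75 alone had 5587 and 5583 in control and 4637 and 4533 in siHNF4A. Pseudogene rows existed for 57 members and held a median of 0.10% of the counts of gene and pseudogenes, with over 10% for 3 members, RPL21, RPL41 (17.0%) and RPS2 (11.6%). How the authors treated reads that match several copies is not given in the sources used here, so the split between such rows is uncertain.

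Of 16 translation factors and other genes with TOP mRNAs, 9 fell and 1 rose, against 8.11% and 6.02% of all genes tested, with a median log2 fold change of -0.20. EEF1B2, a subunit of the factor that recharges EEF1A1, had 7737 and 8324 normalized counts in control and 5684 and 5310 in siHNF4A (-0.55, limma adjusted p = 0.000700). TPT1 (-0.33), NPM1 (-0.36) and EIF3L (-0.47) fell, and EIF3F, another subunit of initiation factor 3, rose by 0.36. Of 4 ribosomal proteins whose symbols the rule does not match, 1 passed, GNB2L1 (now RACK1), which fell (-0.30), and its call was lost without siHNF4A 2 (limma adjusted p = 0.0855). FAU (-0.02) and RPL36AL (0.04) did not pass.

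Of 47 genes for RNA polymerase I and the processing of ribosomal RNA, 9 fell and 2 rose, against 8.11% and 6.02% of all genes tested, with a median of -0.17. WDR12, which processes the RNA of the large subunit, fell by 0.69 on the log2 scale, from 2136 and 2168 normalized counts to 1335 and 1332. The nucleolar proteins NCL and NOP58 fell too (both -0.28), NCL by less with quantile normalization (-0.18) and NOP58 losing its call without either siHNF4A library. NOLC1, a chaperone of small nucleolar RNA particles, rose from 1623 and 1737 to 3303 and 3356 (0.99). Of 20 genes for subunit assembly and export 4 fell and none rose (median -0.17), among them MDN1 (-0.42) and MRTO4 (-0.40), and MDN1 alone of the 4 kept its call without siHNF4A 2. The shares called lower were 19.1% in the RNA polymerase I list and 20% in the assembly list. Both lie above the 8.11% of all genes tested and near the 16.4% of genes that averaged 1000 or more. They do not set these lists apart. Of 76 proteins of the mitochondrial ribosome, 8 fell and none rose (median -0.14), near the 8.11% of all genes called lower, although 63 had a lower mean.

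Of 21 tested regulators of ribosomal protein genes and mRNAs, 3 fell (14.3%) and none rose, with a median of -0.12. That share lies between the 8.11% called lower of all genes tested and the 16.4% of genes that averaged 1000 or more, so it does not set the list apart. MYC had 1960 and 2164 normalized counts in control and 1290 and 1477 in siHNF4A (log2 fold change -0.58, SE 0.09, limma adjusted p = 0.00311). RHEB, which activates mTOR, had -0.33 and SP1 -0.35, and both calls were lost without siHNF4A 1. LARP1 (-0.02) and MTOR (-0.13) did not pass. In a list of 12 genes of the p53 response, 3 fell and none rose, against 8.11% and 6.02% of all genes tested: MDM2 from 2010 and 1821 to 1033 and 1365 (-0.69), CDKN1A from 816 and 997 to 581 and 551 (-0.67), and TP53INP1 (-0.79, limma adjusted p = 0.0621 without siHNF4A 1). Of 12 host genes of small nucleolar RNAs, 3 fell and none rose (median -0.22), against 8.11% and 6.02% of all genes tested, and SNHG16 fell the most, from 1974 and 1899 to 853 and 782 (-1.24). The other 2 calls, SNHG8 and ZFAS1, were lost without control 1, without either siHNF4A library and with libraries rescaled to the same total, which leaves 1 of 12.

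**Figure D4:**
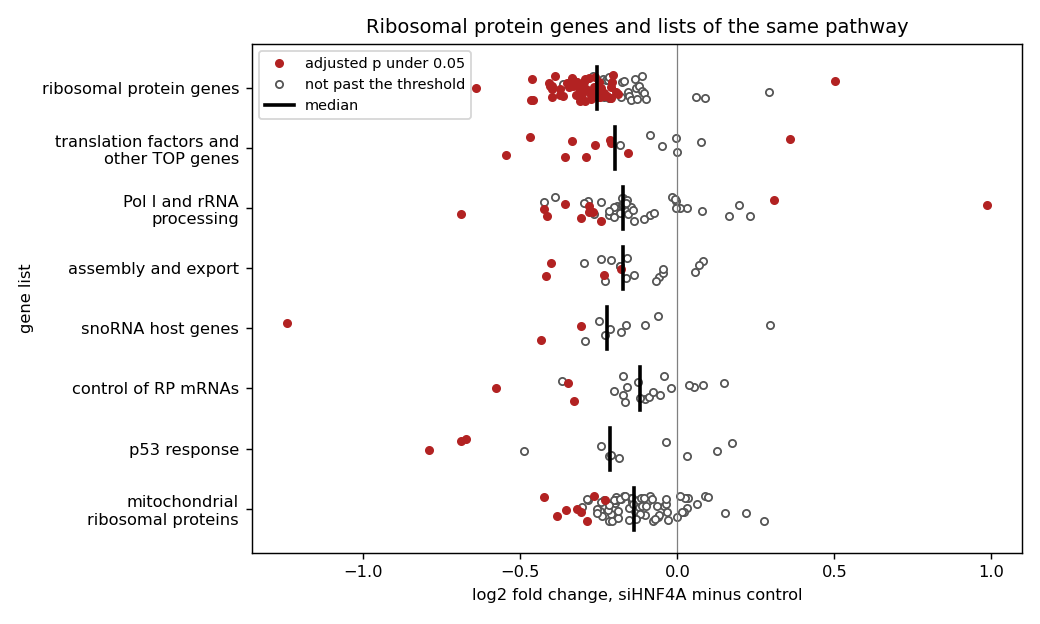
Log2 fold changes (x axis) of single genes (points) in the ribosomal protein class and in 7 lists of related genes (y axis), with genes past the limma threshold in filled red, others open, and the list median as a black bar. The ribosomal protein genes have the lowest median of these lists, -0.26, and MYC, MDM2, CDKN1A and SNHG16 are among the filled points at the left of their lists.

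Start sequences were found in RefSeq for 66 of the 82 genes, in 82 windows of 30 bases, since some genes have several starts. A run of at least 8 pyrimidines was present for 54 of the 66 genes (81.8%), against 15.4% of all genes with a start window and 17.4% of the tested ones. Canonical genes held it in 53 of 62 cases (85.5%) and paralogs in 1 of 4. The 1 paralog with such a run was RPL22L1, shown beside RPL22 because both hold it.
RPL22 (chr1:6199576-6199605, minus strand): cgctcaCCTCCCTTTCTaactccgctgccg
RPL22L1 (chr3:170870176-170870205, minus strand): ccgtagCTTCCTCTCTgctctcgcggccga
RPL26, whose paralog has no run longer than 3 bases in the window shown above, holds a long one, and so does RPS27.
RPL26 (chr17:8383174-8383203, minus strand): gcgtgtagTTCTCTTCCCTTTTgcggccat
RPS27 (chr1:153990752-153990781, plus strand): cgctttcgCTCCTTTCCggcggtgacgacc
The median log2 fold change was -0.26 for the 53 canonical genes with a long run, of which 39 were called lower, and -0.24 for the 9 without, of which 7 were called lower; the difference was not tested. RPL11, with a long run, was not called. Among tested genes that are not ribosomal protein genes, the median was -0.02 both for the 1699 with a long run and for the 8319 without, and 9.83% and 8.92% of them were called lower.

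**Figure D5:**
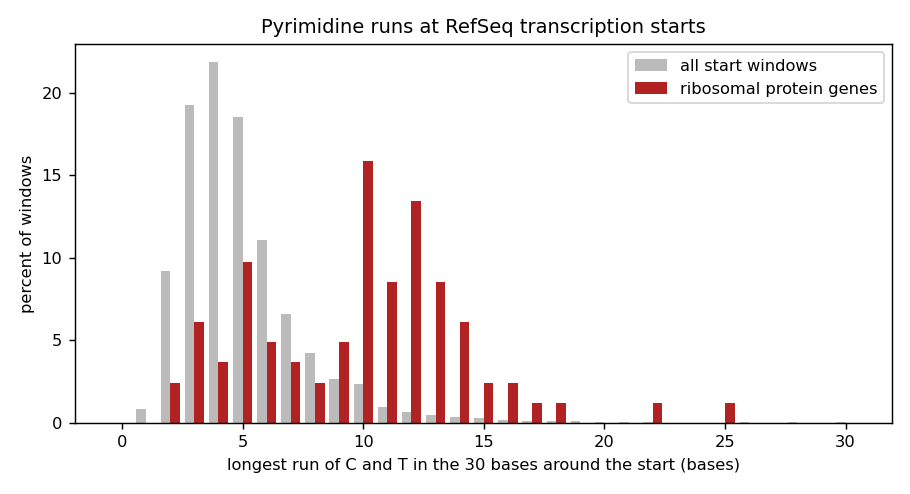
Percent of start windows (y axis) by the length of their longest unbroken run of C and T in the 30 bases around a RefSeq transcription start (x axis), for windows of ribosomal protein genes (red, 82 windows) and all windows of the RefSeq table (grey, 35116 windows). Windows of ribosomal protein genes are most frequent at 10 and at 12 bases, and 69.5% of them reach 8 bases, against 12.7% of all windows.

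In the 300 bases from 250 before to 50 after a start, searched on both strands, CCGGAAGT, the core bound by ETS factors such as GABPA, was present in 12 of the 82 windows of ribosomal protein genes (14.6%) and in 4.14% of all windows. AAGATGGC, bound by YY1, was present in 8.54% against 2.89%, GGGCGG, bound by SP1, in 53.7% against 45%, and TATAAA in 7.32% against 11.5%. The letters CAAAGTCCA, a strong form of the HNF4 site, were found in 0 of the 82 windows and in 0.384% of all windows, which says only that these letters are not in these windows. The 250 bases before the start were searched in the 55 members with 1 start window. This left out RPL10 and RPS27A, with several windows, and RPL30, with none. Among the members searched, 3 that kept their call had an ETS match in that stretch, RPS27L, RPS25 and RPS18. The first 2 are shown, with the match in capitals.
RPS27L (chr15:63157478-63157727, minus strand): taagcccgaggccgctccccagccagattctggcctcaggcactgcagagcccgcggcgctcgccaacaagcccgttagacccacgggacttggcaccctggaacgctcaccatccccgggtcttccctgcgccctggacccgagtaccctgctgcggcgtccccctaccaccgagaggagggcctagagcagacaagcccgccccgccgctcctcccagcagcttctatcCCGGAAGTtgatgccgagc
RPS25 (chr11:119018344-119018593, minus strand): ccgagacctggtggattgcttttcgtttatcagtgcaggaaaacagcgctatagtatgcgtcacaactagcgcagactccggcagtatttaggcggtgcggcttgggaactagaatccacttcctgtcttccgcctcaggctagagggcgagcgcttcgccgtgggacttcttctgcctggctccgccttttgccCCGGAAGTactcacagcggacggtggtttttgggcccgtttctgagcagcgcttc
The match begins 19 bases before the start in RPS27L and 55 bases before it in RPS25. A match is a description of the letters and not a measured binding site.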

How the data were processed

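RNA was measured in 4 RNA-seq libraries (2 control, 2 siHNF4A). Values are normalized counts, a signal the authors deposited after a normalization not given in the sources used here; Bowtie2, Bowtie, Trim Galore, Picard, MACS2 and build hg19 are named without roles, per the submitters' processing notes. Genes with a mean of at least 10 were tested with limma 3.58.1 (R 4.3.3; linear model, empirical Bayes with variance trend, no block) on log2(normalized count + 1), which understates changes of low genes. Benjamini-Hochberg adjustment covered all 15577 genes, with calls at an adjusted p under 0.05. On simulated data with 200 genes changed by 1 (log2), 65.5% were recovered with 6 false calls. That change is larger than any member's (the largest in size was -0.64, RPS27L), and the simulated noise was independent between genes. These figures therefore do not carry over to the calls of members.

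Named are HNF4A, the 10 called members with the largest fall and rise, the 5 with the largest changes in each direction, the 5 with the highest and lowest means, paralogs with their canonical genes, 9 members of known role, and up to 4 called genes per related list. Members and lists were chosen with earlier results of these data known. RefSeq symbols matched 81 members, and synonyms the other. Single values of 3 members and of 1 related gene are not reported here. Deposited peak lists were not used here, since no annotation of hg19 was used. Figures used Python 3.11.15 and matplotlib 3.10.9. Alternatives were other pseudocounts, scalings, filters, variance settings, a replicate block and leaving out each library.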

Additional observations from a re-analysis of the deposited data

How the results depend on the processing

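The median log2 fold change of the 82 genes stayed negative under each alternative, between -0.32 and -0.20, as did the log2 ratio of their sum, between -0.30 and -0.19. Counts of calls moved more. With no filter, 726 genes, 11 members and 13 genes of the related lists (the mitochondrial ribosome not counted) were called, against 2202, 56 and 35, with more genes tested. Without the variance trend 0 were called in each set by limma (3524 genes with an unadjusted p under 0.05), and HNF4A, at -1.97, had an adjusted p of 0.0919. Leaving out 1 library gave 1013 to 2449 called genes, 11 to 65 called members and 16 to 37 called genes of the same lists. The difference of RPS26 ran from -0.067 (without control 1) to 0.25 (without control 2). The other 2 scalings gave 53 (median ratio) and 42 (quantiles) called members. A filter at a mean of 50 gave 59 of 81 and one at 1000 gave 61 of 76; pseudocounts of 0.5 and 5 gave 56 and 57, and the robust option 57.

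With the replicate number as a block, 56 members (54 of them the same) and 2428 genes were called. The numbers are not stated to pair samples, and deviations of same-numbered libraries did not go together (r = -0.02 across 15577 genes and -0.37 across the 82 members, which are not independent).

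With 2 libraries per group the test borrows its variances from other genes, and depth per library is unknown. The cause of the calls lost without the filter or the trend was not tested.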

Other observations

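The table also holds 4 copies that matched the symbol rule but fell below the minimum. RPL3L, the muscle paralog of RPL3, had 2.91 and 2.64 normalized counts in control and 2.14 and 10.9 in siHNF4A. RPS10L had 6.11 and 6.59 against 5.52 and 3.05, RPL12L3 was listed at 0 in control and at 0.907 and 0.999 in siHNF4A, and RPL10L was listed at 0 in all 4 libraries. None of these was tested.

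Readthrough rows, which join a ribosomal protein gene to its neighbour, were low beside the single genes. RPS10-NUDT3 had 224 and 200 normalized counts in control and 192 and 278 in siHNF4A, where RPS10 fell from 6783 and 7450 to 5964 and 5124. RPL17-C18orf32 had 13.3 and 25.1 against 5.60 and 16.2. The groups overlapped in both rows.

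Summed over the 254 rows of ribosomal protein pseudogenes, normalized counts were 10930 and 11417 in control and 9203 and 9948 in siHNF4A. That is 85.7% of control, beside 83.9% for the genes themselves. RPL21P75 alone averaged 5085 normalized counts over the 4 libraries, so the sum rests on few rows. A lower mean log2 value was seen for 11 of the 20 pseudogenes tested (55%), against 51% of all genes tested. Of the 20 pseudogenes tested, RPL21P75 and RPS2P5 fell (10%, near the 8.11% of all genes called lower) and none rose. The RPL21P75 call was lost without siHNF4A 2 (limma adjusted p = 0.0749). The RPS2P5 call was lost under each rescaling and without control 2 or either siHNF4A library.

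The 81 genes matched by symbol in RefSeq lie on 21 chromosomes, with 12 on chromosome 19 and 9 on chromosome 3.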
